A study of Rattus norvegicus with 11 samples.

Results

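Expression of 45 DNA repair genes was examined in the livers of Wistar rats. The genes were a list set by symbol, chosen with earlier results of these data known and ordered here by repair pathway. Each was represented by the brightest probe set carrying that symbol alone. Of the 45, 43 had a probe set, out of 14217 genes so measured on the arrays, and 2 (Atm and Rad51d) were not analysed here. A probe set whose log2 signal, averaged over the arrays, lay in the lowest 40% was called dim and not tested, which kept 39 members among 10714 genes. The dim members were Rad51c, Chek2, Mre11 and Brca1. The arrays came from 8 rats given the high dose of mequindox (animals 2, 3, 4, 5, 6, 8, 10 and 11) and 3 control rats (animals 1, 2 and 9), with 1 Affymetrix array of whole liver per animal. All were labelled week 9 of age except high-dosed animal 8, labelled week 10. The sources used here do not give the dose by mass, the length of treatment or the sex. The study picked these groups for arrays by metabolite profiles of liver extracts and by clinical chemistry. Hepatocyte markers marked the tissue as liver, with Alb intensities from 33648 to 34328 in high-dosed animals and from 33424 to 34254 in controls. The highest of these was the highest value on any array, so the matching Alb ranges do not show equal hepatocyte content. Of 9 hepatocyte markers 1 rose (Apoa1, log2 fold change 0.35) and 1 fell (Asgr1, -0.18), where 7.91% of all genes tested rose and 2.74% fell.

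Mequindox is a quinoxaline N-oxide antibacterial for animals, of a class studied for damage to DNA. Cells mend damaged DNA along several routes. Direct reversal strips an alkyl group from a base, base excision repair cuts out small base lesions and seals the nick, nucleotide excision repair removes bulky lesions with a stretch of strand, mismatch repair corrects replication errors, and breaks through both strands are rejoined by end joining or by homologous recombination. Adult hepatocytes rarely divide, so excision repair and end joining are held to serve them more than recombination, which needs a sister chromatid. Messenger RNA was measured here, not DNA damage or repair activity, and in whole liver a change in the number of cells of a type and a change of RNA per cell cannot be told apart.

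Of the 39 tested members 8 rose, 0 fell and 31 did not pass at a limma adjusted p below 0.05, taken over all 10714 genes. The 8 were the helicase gene Blm, the alkyltransferase gene Mgmt, the lesion-verifying gene Xpa, the base excision genes Mpg, Apex1, Polb and Lig3, and the single-strand binding subunit gene Rpa2. Among all genes tested, 7.91% rose and 2.74% fell, and the members called as higher were 20.5% of the members tested. At an unadjusted limma p below 0.05, 13 members were higher and 0 lower, against 18.3% and 7.36% of all genes. The median log2 fold change, high-dosed minus control, was 0.093 over the 43 measured members and -0.0027 over all genes with a probe set, and it was above 0 in 32 of the 43 (74.4%, against 49.2% of all genes with a probe set and 53.9% of those tested). Because the members were chosen with earlier results of these data known, a share above the background is a description and no test. No tested member had passed the signal filter through 1 group alone. The count rested on few controls: without control 1 the members called as higher were 2 (Blm and Lig3), without control 2 they were 5, without control 9 they were 4 and without high-dosed animal 8 they were 5. The shares of all genes called as higher in these settings, in the same order, were 2.3%, 5.73%, 5.11% and 5.79%. After quantile normalization 6 members were higher and 0 lower, against 5.50% and 3.11% of all genes, and after median centring 7 were higher and 0 lower, against 4.41% and 2.41%.

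**Figure D1:**
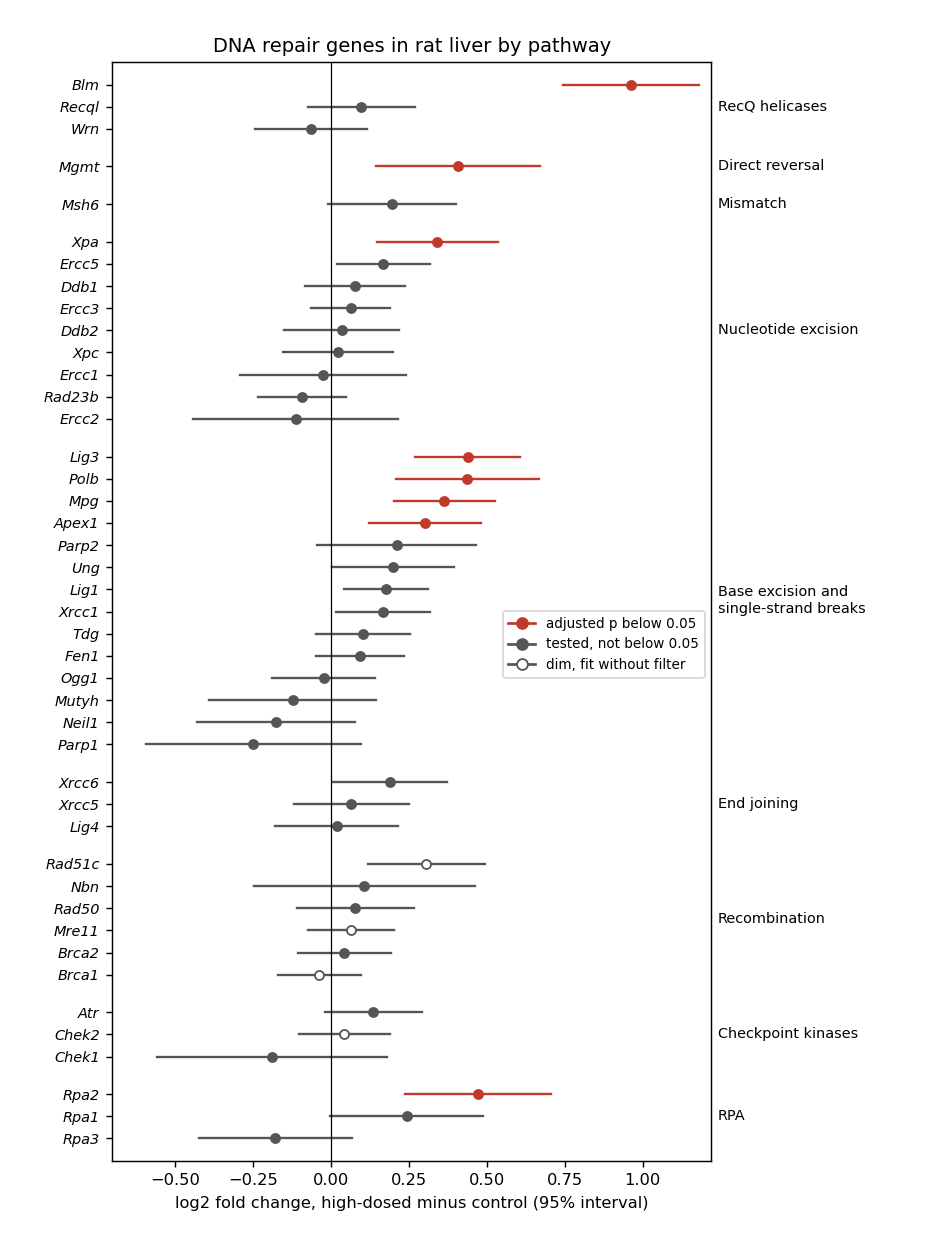
Log2 fold change of each measured DNA repair gene, high-dosed (8 rats) minus control (3 rats), with its 95% interval from limma, grouped by pathway. Red points had an adjusted p below 0.05, grey points did not, and open points were dim and come from a fit without the signal filter. Blm lies apart at 0.96, and the other 7 red points lie between 0.30 and 0.47.

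Sequences before the transcription start site are shown for the called genes to set beside their values. RefSeq (assembly GRCr8) gave 5 of the 8 in the table used, with 250 bases each that end at the base before the start site. They are written 5′ to 3′ in the direction of the gene. Capitals mark CACGTG, an E-box sequence that reads alike on both strands and is bound by factors such as USF, MYC and the CLOCK-BMAL1 pair. This motif was chosen after the sequences of these called genes were seen, so how often they hold it is no test.
Apex1: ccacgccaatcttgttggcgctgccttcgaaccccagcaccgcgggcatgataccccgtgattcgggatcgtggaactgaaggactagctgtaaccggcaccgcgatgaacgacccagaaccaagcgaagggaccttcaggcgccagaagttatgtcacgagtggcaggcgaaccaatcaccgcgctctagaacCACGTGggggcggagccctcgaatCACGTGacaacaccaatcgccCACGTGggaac
Lig3: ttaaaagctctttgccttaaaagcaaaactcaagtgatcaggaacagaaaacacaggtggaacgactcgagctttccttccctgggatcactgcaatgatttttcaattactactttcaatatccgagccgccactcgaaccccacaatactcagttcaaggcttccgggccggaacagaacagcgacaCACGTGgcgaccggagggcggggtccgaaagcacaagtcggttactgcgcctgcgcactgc
Mgmt: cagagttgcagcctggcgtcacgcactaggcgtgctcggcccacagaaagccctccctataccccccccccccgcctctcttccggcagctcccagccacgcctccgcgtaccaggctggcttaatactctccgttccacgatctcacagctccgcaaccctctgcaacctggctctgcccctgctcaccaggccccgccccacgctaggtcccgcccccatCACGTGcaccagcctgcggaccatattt
Mpg: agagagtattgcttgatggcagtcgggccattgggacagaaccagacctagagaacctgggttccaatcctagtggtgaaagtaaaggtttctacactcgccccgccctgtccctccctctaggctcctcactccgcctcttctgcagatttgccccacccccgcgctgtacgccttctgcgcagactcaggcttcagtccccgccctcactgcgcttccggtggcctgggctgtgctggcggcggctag
Rpa2: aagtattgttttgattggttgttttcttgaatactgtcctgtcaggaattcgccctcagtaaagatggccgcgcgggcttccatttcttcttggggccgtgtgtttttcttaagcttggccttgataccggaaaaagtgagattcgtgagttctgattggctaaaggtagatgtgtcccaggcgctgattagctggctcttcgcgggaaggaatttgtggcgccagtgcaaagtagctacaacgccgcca
These windows lie at chr15:26617976-26618225 (plus strand) for Apex1, chr10:68215121-68215370 (plus strand) for Lig3, chr1:201140582-201140831 (plus strand) for Mgmt, chr10:15906925-15907174 (minus strand) for Mpg and chr5:150260522-150260771 (plus strand) for Rpa2. The Apex1 window holds 3 copies of CACGTG, beginning 56, 32 and 11 bases before the start site. Lig3 has 1, beginning 61 bases before it, and Mgmt has 1, beginning 28 bases before it, while the Mpg and Rpa2 windows hold 0. CACGTG stood in 7 of the 35 measured members with a window (20%), a count that includes these 3 genes, which prompted the choice, and in 8.24% of the 8965 windows of tested genes. The GC box GGGCGG, read on both strands, stood in 4 of the 5 windows, all but that of Rpa2, and in 58.2% of those of tested genes. CCAAT, read on both strands, stood in Apex1 (3 copies), Mpg (2) and Rpa2 (2), and in 35.7% of those of tested genes. A match is only a match of letters, and binding was not measured.

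Blm, encoding the RecQ helicase that unwinds recombination intermediates and stalled forks and is mutated in human Bloom syndrome, had the largest change of the list. Its intensity ran from 246.8 to 336.4 in high-dosed animals, with a median of 289.8, against 143.5, 121.2 and 103.9 in controls 1, 2 and 9. Every high-dosed animal lay above every control, with a wide gap between the groups. The mean was 292.1 ± 35.4 in high-dosed animals (SD, n = 8) and 122.9 ± 19.9 in controls (SD, n = 3). On the log2(intensity + pseudocount) scale this was 0.96 ± 0.10 (SE), or 1.95-fold, with a limma adjusted p of 0.000313, and by size on this scale it held rank 27 among the 847 genes that rose. The pseudocount shrinks this value, which was 1.25 with a pseudocount of 1. With each single array left out in turn it was still called (adjusted p from 0.00027 to 0.00238). Of 22 other settings it lost its call in 1, the fit within animal numbers 8 and above, where 1 control remained (1.04, adjusted p = 0.071). The other RecQ helicase genes did not pass. Recql, another member of the family, had a log2 fold change of 0.098 (adjusted p = 0.477), and Wrn, the Werner syndrome helicase and exonuclease, had -0.063 (adjusted p = 0.677).

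Base excision repair and the mending of single-strand breaks held 14 of the 39 tested members and 4 of the 8 calls. These calls lay at steps from the removal of the base to the seal. A glycosylase removes the damaged base, APEX1 cuts the strand at the empty site, DNA polymerase beta fills the gap, and DNA ligase III, bound to its scaffold XRCC1, closes the nick. Of the 14 members of this pathway 4 rose, 0 fell and 10 did not pass, where 7.91% of all genes rose and 2.74% fell, and the median log2 fold change was 0.17. Without control 1, of these 4 only Lig3 was still called.

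Mpg, the glycosylase that lifts out alkylated purines such as 3-methyladenine, ran from 392.6 to 463.7 in high-dosed animals (median 412.6), against 318.2, 350.9 and 276.3 in controls 1, 2 and 9. The groups did not overlap, and 6 of the 8 high-dosed values lay close together between 392.6 and 413.2. The log2 fold change was 0.36 ± 0.075 (SE), 1.29-fold, limma adjusted p = 0.0105. Apex1, the main abasic site endonuclease, ran from 909.8 to 1199.3 in high-dosed animals (median 988.8), against 800.2, 776.7 and 845.0 in the same controls. All high-dosed animals were above all controls, although the lowest was near the highest control. Its log2 fold change was 0.30 ± 0.083 (SE), limma adjusted p = 0.0378, and the call was lost with each of the controls left out (adjusted p from 0.0624 to 0.146), without high-dosed animal 4, 8 or 11 (adjusted p from 0.0585 to 0.061) and after quantile normalization (adjusted p = 0.0586). The other Apex1 probe set, under the signal filter, differed by 0.029. Mpg lost its call narrowly without control 1 (adjusted p = 0.0502).

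Polb, the gap-filling polymerase, ran from 364.4 to 536.8 in high-dosed animals (median 471), against 309.6, 386.2 and 280.9 in controls 1, 2 and 9. High-dosed animal 2 lay below control 2, and the other 7 lay above all controls. The log2 fold change was 0.44 ± 0.11 (SE), 1.35-fold, limma adjusted p = 0.0222. It was lost without control 1 or 9 (adjusted p = 0.115 and 0.0956), and was 0.28 within animal numbers 6 and below and 0.73 within 8 and above. The other Polb probe set differed by 0.17, which did not pass (adjusted p = 0.398 over all probe sets).

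Lig3, the ligase of the nick-sealing step and of mitochondrial DNA, ran from 739.9 to 923.6 in high-dosed animals (median 855.3), against 603.9, 570.4 and 665.8 in controls 1, 2 and 9. The groups were separate. The log2 fold change was 0.44 ± 0.078 (SE), 1.36-fold, limma adjusted p = 0.00512, and the call was kept with each single array left out (highest adjusted p = 0.034). Its other probe set, which was fainter but passed the filter, averaged 239.6 in high-dosed animals and 234.5 in controls and differed by 0.026 (adjusted p = 0.895 over all probe sets). The mean of both probe sets gave 0.23 (adjusted p = 0.0651), so the rise of Lig3 was seen by 1 of 2 probe sets.

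**Figure D2:**
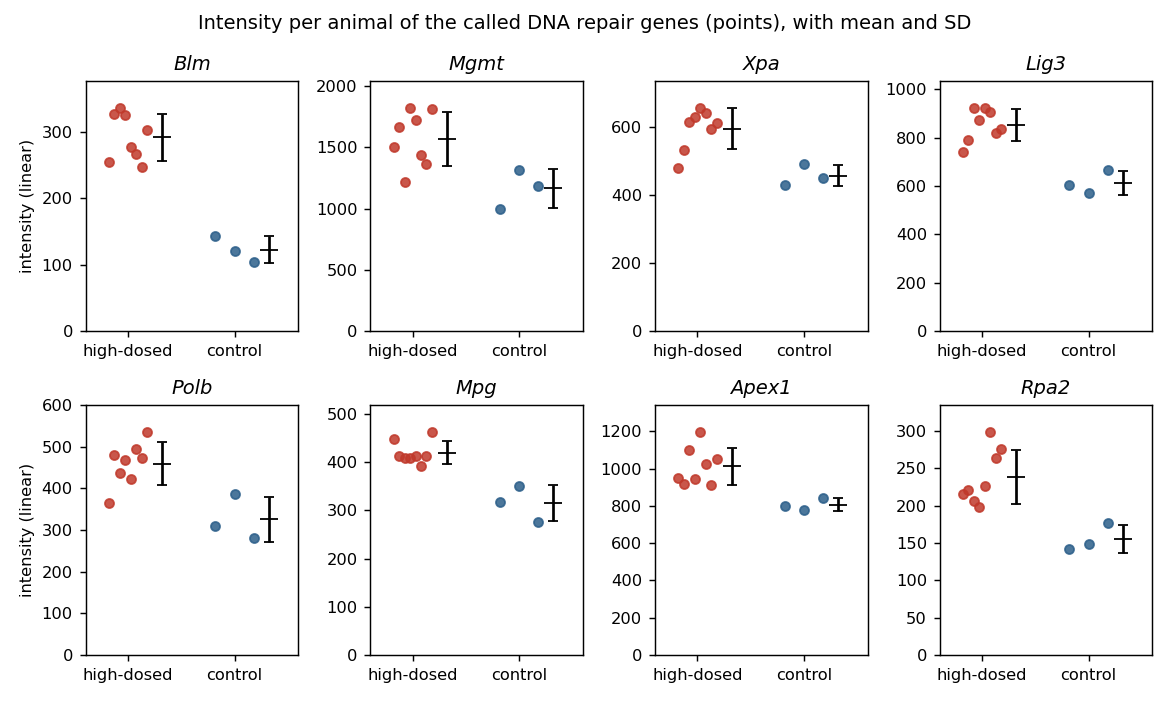
Linear intensity per animal of the 8 called DNA repair genes, high-dosed rats (red, 8 points) left of controls (blue, 3 points), with the mean and SD beside each group and every axis starting at 0. The groups are separate for Blm, Lig3, Mpg, Apex1 and Rpa2, and 1 high-dosed animal lies below the highest control for Mgmt, Xpa and Polb.

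Lig1, the replicative ligase that also seals longer repair patches, ran from 268.0 to 305.7 in high-dosed animals (median 293.2), against 243.9, 261.7 and 247.4 in controls 1, 2 and 9. The groups did not overlap, yet the log2 fold change of 0.18 ± 0.062 (SE) missed the threshold (limma adjusted p = 0.0861). In a fit with a term for animal numbers from 8 up it passed (adjusted p = 0.0451). That term sets control 9 with high-dosed animals 8, 10 and 11 by label number alone, and the labels give no batch. The other Lig1 probe set, under the signal filter, had the opposite sign (-0.12). It averaged 109.3 in high-dosed animals and 125.3 in controls. Xrcc1, the scaffold of ligase III, ran from 432.2 to 521.8 in high-dosed animals (median 500.1), against 417.9, 439.8 and 434.9 in the same controls. High-dosed animal 4 lay among the controls and the other 7 above them, with a log2 fold change of 0.17 ± 0.069 (SE) that did not pass (adjusted p = 0.148). In 6 members in all the groups did not overlap, each with the high-dosed animals above (Blm, Apex1, Mpg, Lig1, Lig3 and Rpa2), 15.4% of the members tested, against 8.69% of all genes. The high-dosed animals lay wholly below in 0 members, against 3.37% of all genes.

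The oxidised-base glycosylases did not share in these rises. Ogg1, which removes 8-oxoguanine, had a log2 fold change of -0.023 with a 95% interval from -0.19 to 0.14. Mutyh, which removes adenine set opposite 8-oxoguanine, had -0.12 (-0.39 to 0.14), and Neil1, for oxidised pyrimidines, had -0.18 (-0.43 to 0.079), none passing (limma adjusted p from 0.387 to 0.878). The uracil glycosylase Ung had 0.20, the thymine glycosylase Tdg 0.10 and the flap nuclease Fen1 0.093, with adjusted p from 0.183 to 0.413. The strand-break sensors pointed apart: Parp1 had -0.25 (-0.59 to 0.097) and Parp2 0.21 (-0.044 to 0.47), with adjusted p of 0.365 and 0.292. These intervals leave room for changes of the size called in Mpg or Apex1 for Ung and Parp2, but not for a rise of that size in Ogg1, Mutyh or Neil1.

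Direct reversal was represented by Mgmt, a protein that takes the methyl group of O6-methylguanine onto itself and is used up by the reaction. Mgmt ran from 1220.3 to 1822.7 in high-dosed animals (median 1585.4), against 1000.8, 1316.5 and 1182.6 in controls 1, 2 and 9. High-dosed animal 4 lay below control 2, and the other 7 above all controls. The log2 fold change was 0.41 ± 0.12 (SE), 1.33-fold, with a limma adjusted p of 0.04995, just inside the threshold. The call was lost in 18 of 23 other settings, with adjusted p from 0.0507 to 0.271 where it was lost and from 0.0259 where it was kept, and the log2 fold change stayed between 0.31 and 0.49.

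In nucleotide excision repair 1 of 9 members rose, 0 fell and 8 did not pass, a share near the 7.91% of all genes that rose, and the median log2 fold change was 0.035. Xpa, which verifies the lesion and gathers the incision complex, ran from 479.0 to 656.2 in high-dosed animals (median 613.4), against 429.1, 489.8 and 451.1 in controls 1, 2 and 9. High-dosed animal 2 lay below control 2 and the other 7 above all controls. The log2 fold change was 0.34 ± 0.090 (SE), 1.27-fold, limma adjusted p = 0.0312, lost without control 1 or 9 (adjusted p = 0.162 and 0.0832) and, more narrowly, without high-dosed animal 4, 5 or 8 (adjusted p from 0.0508 to 0.0537). Ercc5, the nuclease of the 3′ cut, ran from 418.3 to 495.4 in high-dosed animals (median 433.3), against 379.1, 364.2 and 418.9 in the same controls. All high-dosed animals but 1 lay above the highest control, and the log2 fold change of 0.17 ± 0.068 (SE) did not pass (adjusted p = 0.138). The damage sensors Xpc (0.024), Ddb1 (0.078), Ddb2 (0.035) and Rad23b (-0.092) lay near 0. So did the remaining genes Ercc3 (0.064), Ercc2 (-0.11) and Ercc1 (-0.024). In both sets adjusted p ran from 0.418 to 0.925. Xpc and Ddb2 are p53 targets in human cells, and their 95% intervals ran from -0.15 to 0.20 and from -0.15 to 0.22. The other Ddb2 probe set, which was fainter but passed the filter, differed by 0.18 (adjusted p = 0.21 over all probe sets).

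Rpa2, the middle subunit of the replication protein A trimer that coats single-stranded DNA in replication and every repair route with an open strand, ran from 197.9 to 299.3 in high-dosed animals (median 223.2), against 141.9, 148.2 and 176.2 in controls 1, 2 and 9. The groups did not overlap, and high-dosed animals 8, 10 and 11 were highest (264.2 to 299.3, against 197.9 to 225.7 in high-dosed animals 2 to 6). The log2 fold change was 0.47 ± 0.11 (SE), 1.39-fold, limma adjusted p = 0.018, lost without control 1 or 2 (adjusted p = 0.107 and 0.0622). With a pseudocount of 1 the log2 fold change was 0.60. Its partners did not move with it past the threshold. Rpa1, the large subunit, had 0.24 (95% interval -0.00079 to 0.49, adjusted p = 0.196), and the small subunit Rpa3 had -0.18 (-0.42 to 0.067, adjusted p = 0.358). The difference between subunits was not tested.

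Of the listed genes for double-strand breaks 3 were tested in each route, and 0 passed, where 7.91% of all genes rose and 2.74% fell. With so few genes, 0 is near these shares. In end joining, Xrcc6, the Ku70 subunit of the clamp that grips broken ends, ran from 538.1 to 666.5 in high-dosed animals (median 585.2), against 499.0, 575.0 and 460.4 in controls 1, 2 and 9. Control 2 lay among the high-dosed animals, and the log2 fold change was 0.19 ± 0.085 (SE, adjusted p = 0.18). Its partner Xrcc5 (Ku80) had 0.066 and the end-joining ligase Lig4 had 0.019. The other Xrcc5 probe set had the opposite sign (-0.27, adjusted p = 0.165 over all probe sets), and the mean of its probe sets was -0.10.

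In recombination 3 of 7 members were tested and 0 passed, too few to set apart from the 7.91% of all genes that rose. This count depends on how genes were filed. Blm stood with the RecQ helicases, and Rad52, which rose by 0.53 (limma adjusted p = 0.00175), was on a wider list given below. On that wider list Rbbp8 (0.21), Palb2 and Xrcc3 (-0.22) were tested and did not pass. Rad50, the coiled ATPase of the end-resecting complex, had 0.079, Nbn, the subunit that recruits the ATM kinase, had 0.11 and Brca2 had 0.043, with adjusted p from 0.616 to 0.737. Nbn scattered widely among high-dosed animals, from 878.4 to 1663.2, against 1029.6 to 1124.3 in controls, with animals 6 and 8 highest. The dim members Mre11, Brca1 and Rad51c lay under the filter value of 7.40 on the log2 scale. The highest dim member was Chek2, at a mean of 7.28, and the lowest tested member was Wrn, at 7.53. Rad51c ran from 83.9 to 123.0 in high-dosed animals (median 110.7), against 72.0, 93.9 and 66.2 in controls 1, 2 and 9. In the fit without a filter, in which 4.83% of all genes rose, its log2 fold change was 0.31 ± 0.087 (SE), just outside the threshold (adjusted p = 0.053). It passed in 4 other settings, among them without control 2 and with the term for animal numbers from 8 up. Brca1 (-0.037) and Mre11 (0.064) had adjusted p of 0.77 and 0.618 in that fit.

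The checkpoint kinase genes, which halt the cell cycle on damage, did not pass. Atr, the sensor of RPA-coated strands, had 0.14 ± 0.072 (SE, limma adjusted p = 0.263), and its effector Chek1 had -0.19 ± 0.17 (SE, adjusted p = 0.532). Chek1 was uneven among high-dosed animals, at 628.9, 610.2 and 526.5 in animals 2, 3 and 4 and from 346.3 to 418.2 in the other 5, against 449.8 to 572.0 in controls. Chek2, the effector of ATM, was dim and had 0.043 without a filter (adjusted p = 0.754). Mismatch repair was represented by Msh6, which recognises base mispairs, with 0.20 ± 0.095 (SE, adjusted p = 0.218).

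**Figure D3:**
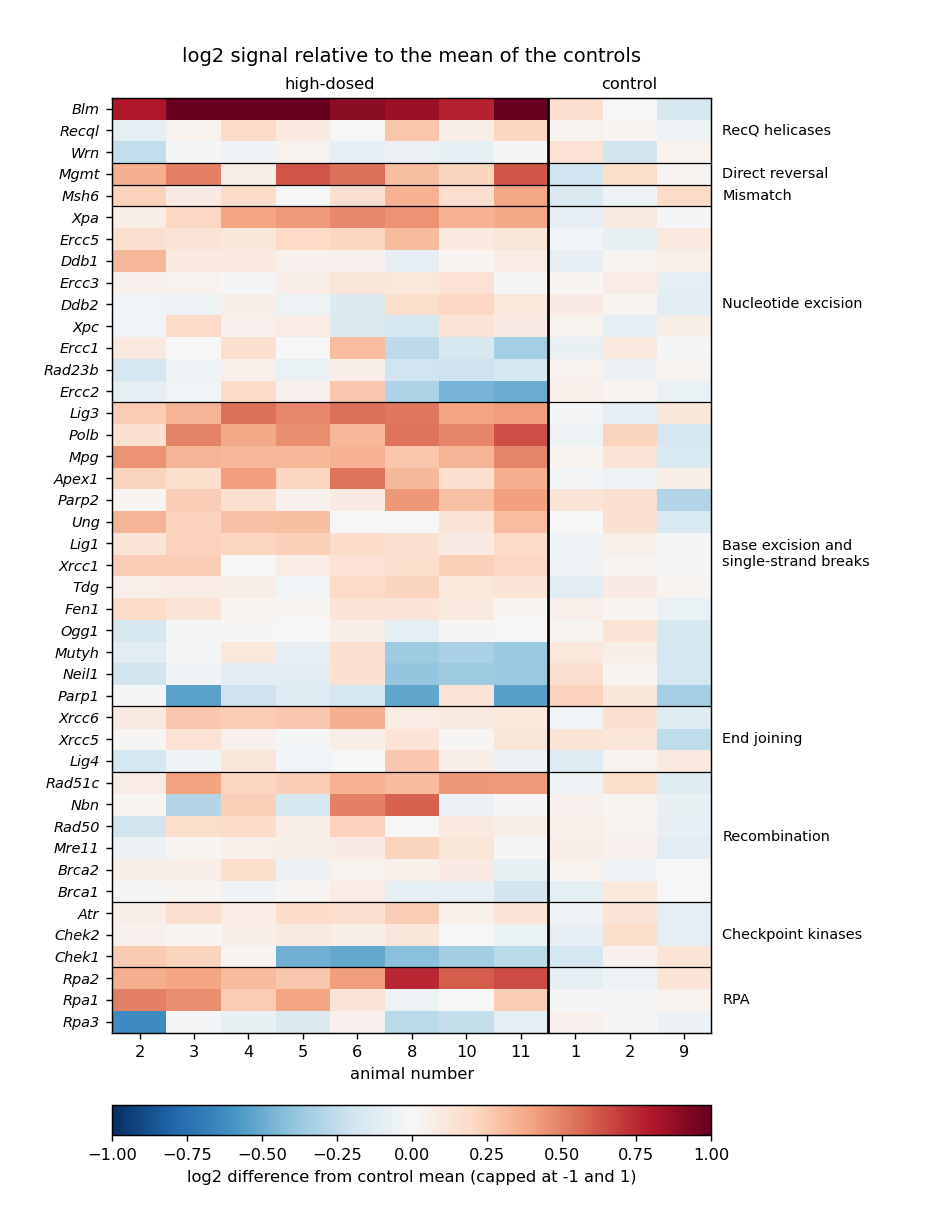
Log2 signal of each measured DNA repair gene in each animal relative to the mean of the 3 controls, high-dosed animals left and controls right, rows grouped by pathway and sorted by fold change. Blm, Mgmt, Lig3, Polb, Mpg, Apex1, Xpa and Rpa2 are red across the high-dosed animals, and Ercc1, Ercc2, Mutyh and Neil1 are blue in high-dosed animals 8, 10 and 11.

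Some members varied among the high-dosed animals by animal number. In animals 8, 10 and 11, against animals 2 to 6, Ercc2 ran from 682.8 to 785.4 against 916.9 to 1200.8, Mutyh from 198.9 to 206.2 against 250.2 to 312.2, and Neil1 from 325.7 to 334.1 against 382.9 to 498.7. Ercc1 was lower in these 3 animals too (429.6 to 496.3, against 561.5 to 704.7), as was the dim Brca1. Rpa2, Parp2 and Ddb2 were higher in them. Of the 43 measured members 3 stood wholly above and 5 wholly below in animals 8, 10 and 11, 6.98% and 11.6%, where 4.75% and 21.7% of all tested genes did. The labels give no batch, so what sets these animals apart was not tested. In a fit that left out animals 8, 10 and 11, added once the data had been seen, Blm, Lig3, Mpg and Rpa2 were still called and Rpa1 (0.35, adjusted p = 0.049) was added. The members called as higher in it were 12.8% of those tested, against 4.72% of all genes.

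A wider list held 90 other genes of the same routes, of lesion bypass, of the Fanconi group (such as Fancl) and of damage signalling (such as Rnf8). It too was chosen with earlier results of these data known, so its shares are no test. Of its 75 measured members 62 were tested, 11 rose, 1 fell and 50 did not pass, against the same background of 7.91% and 2.74%, and the median log2 fold change of the measured members was 0.10. Rad52, a mediator of strand annealing, had 0.53 ± 0.076 (SE, limma adjusted p = 0.00175), and the clamp loader subunit Rfc3 had 0.55 ± 0.086 (adjusted p = 0.00275). Alkbh2, a dioxygenase that reverses alkylation of bases, had 0.64 ± 0.10 (adjusted p = 0.00348). Pold4, a subunit of DNA polymerase delta, had 0.36, Rev3l, the catalytic subunit of the lesion-bypassing polymerase zeta, 0.43, and the mismatch gene Mlh3 0.38 (adjusted p from 0.00819 to 0.0144). Alkbh2 ran from 514.8 to 703.5 in high-dosed animals, against 369.9, 413.1 and 290.4 in controls 1, 2 and 9, and Rad52 from 166.6 to 215.8 against 128.3, 125.2 and 107.7. Both were separate between the groups. The fall was that of Rnf8, a ubiquitin ligase at double-strand breaks (-0.40 ± 0.11, adjusted p = 0.038). Without control 1, 4 of this list rose and 0 fell, the calls of Mlh3, Rev3l and Rnf8 among those lost. The call of Rnf8 was lost with each of the controls left out, and after median centring of the arrays (adjusted p = 0.0532).

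Several repair genes are also made more in dividing cells, and markers of other cells were set beside them, with 7.91% of all genes higher as the background. Of 21 proliferation genes 14 were tested and 3 rose (Mcm4, Tyms and Bub1), 0 fell and 6 were dim, among them Mki67 and Cdk1, and their summed intensity ran from 4884 to 5705 in high-dosed animals, against 4341 to 4885 in controls. Of 7 measured endothelial markers 3 rose (sum 11445 to 12582, against 10026 to 11159 in controls), and of 9 macrophage markers 1 rose, a share near the background (25843 to 34561, against 21051 to 27102). Of 10 measured lymphocyte markers 6 were tested and 0 passed (1499 to 2150, against 1547 to 1828). Their part in the rises of the repair genes was not tested. The median intensity of the arrays ran from 149.0 to 186.6 in high-dosed animals and from 162.1 to 176.4 in controls, and of 5 array quality measures 0 differed (exact two-sided permutation tests over 165 arrangements, lowest unadjusted p = 0.285).

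**Figure D4:**
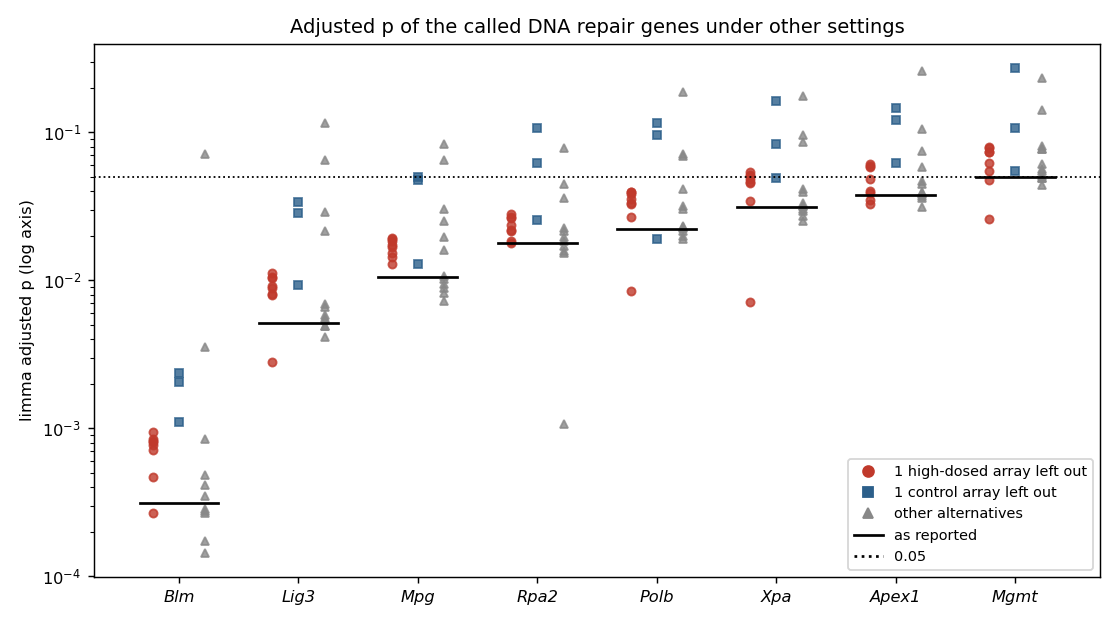
Limma adjusted p (log axis) of the 8 called DNA repair genes as reported (black line), with 1 high-dosed array left out (red), 1 control array left out (blue) and under the other alternatives (grey), and the threshold of 0.05 (dotted). Blm and Lig3 stay below 0.05 for each single array left out, and Mgmt lies at the threshold.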

How the data were processed

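Liver RNA of 11 rats was measured on 1 array each. Per the labels' protocols RNA was extracted with Trizol and labelled as biotin cRNA. The deposited values are linear intensity per probe set (31099, from 1 to 34328), made with MAS5 per the submitters' processing notes, which name neither its version nor its role. Scaling between arrays, detection calls and the genome build are not given in the sources used here, and the number of arrays limits the precision. Nothing says more than 1 array per animal was made, and 0 pairs of arrays were identical.

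Values were taken as log2(intensity + 55.26), a pseudocount set at the 20th percentile of all values, so fold changes are understated, more so the lower the intensity, also in tested genes. Left out were 57 control probe sets and those in the lowest 40% by average log2 signal (below 7.40). Of all probe sets 20832 had 1 gene symbol in the platform annotation, 436 several and 9831 none, and 20764 of the first matched the RefSeq gene table of GRCr8. The brightest probe set stood for a gene; no level is compared between genes. Groups were compared with limma (version 3.58.1, R 4.3.3; moderated, intensity trend, two-sided, Benjamini-Hochberg over all genes tested). The procedure was tested on simulated data with independent noise per gene. These lack the split by animal number among high-dosed animals, so that test does not cover its effect. All adjusted p are from limma. Members and lists were chosen with earlier results of these data known. All members are accounted for. The 12 of lowest adjusted p are given by the range and median of the high-dosed animals and by each control. Of the other repair genes at most 6 called in each direction are named. Alternatives covered pseudocount, filter, scaling, variance trend, probe sets, animal number and each array left out.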

Additional observations from a re-analysis of the deposited data

Results flagged for a closer look

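In 2 of the 43 measured DNA repair genes 1 high-dosed animal stood apart from the other 7, judged by its gap to the nearest value as a share of the group's range and set against Dixon's 95% critical value for 8 samples. For Ddb1 the share was 0.557, with high-dosed animal 2 highest (2016.7, the others 1506.2 to 1714.6). For Rpa3 it was 0.54, with high-dosed animal 2 lowest (1408.8, the others 1830.2 to 2283.5). Chance alone flags about 1 in 20 such groups, and neither gene was called in any setting that left this animal in or out.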

How the results depend on the processing

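The 3 controls limit every comparison. With each array left out in turn, members higher ran from 2 to 8 and lower from 0 to 0, genes higher from 246 to 1081 and lower from 79 to 325, and other repair genes higher from 4 to 14 and lower from 0 to 1. Pathway medians of the log2 fold change then ran from 0.072 to 0.13 for RecQ helicases, 0.011 to 0.056 for nucleotide excision, 0.12 to 0.19 for base excision, 0.055 to 0.14 for end joining, 0.040 to 0.099 for recombination, -0.0054 to 0.13 for checkpoint kinases and 0.21 to 0.28 for RPA.

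Median centring gave 473 genes higher and, of the other repair genes, 7 higher and 0 lower. The share of all calls that were higher was 74.2% as deposited, 63.9% after quantile normalization (589 higher) and 64.7% after median centring. Within animal numbers 6 and below, 3 members, 408 genes and 5 other repair genes were higher, and the base excision median was 0.12. Within animal numbers 8 and above, 0 members, 2 genes and 0 other repair genes were higher and 1 gene and 0 other repair genes lower, with medians of 0.24 for RecQ helicases, -0.041 for nucleotide excision, 0.22 for end joining, 0.18 for recombination, 0.12 for checkpoint kinases and 0.031 for RPA. That fit has 4 arrays. Without high-dosed animals 8, 10 and 11, 5 members, 506 genes and 6 other repair genes were higher.

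Members that changed sign, none of them called in those settings, were Xpc (-0.015) and Lig4 (-0.0036) after quantile normalization, Lig4 (-0.0022) after median centring and Xrcc5 (-0.10) by the mean of its probe sets. Within animal numbers 6 and below these were Ercc1 (0.10), Ercc2 (0.042), Ddb2 (-0.096), Parp2 (-0.036), Xrcc5 (-0.077), Mre11 (-0.024) and Brca1 (0.011), and within 8 and above Xpc (-0.041), Ddb1 (-0.050), Ogg1 (0.13), Parp1 (0.034) and Lig4 (-0.0026). Without high-dosed animals 8, 10 and 11 they were Ercc1 (0.11), Ercc2 (0.075), Ddb2 (-0.041), Mutyh (0.013), Lig4 (-0.026) and Brca1 (0.014). With 1 array left out the ranges that crossed 0 were -0.15 to 0.0094 for Wrn, -0.046 to 0.068 for Lig4, -0.071 to 0.024 for Ercc1, -0.024 to 0.053 for Xpc, -0.019 to 0.078 for Ddb2, -0.10 to 0.045 for Ogg1, -0.062 to 0.14 for Xrcc5, -0.085 to 0.014 for Brca1 and -0.0054 to 0.13 for Chek2. The cause of these changes was not tested. No paired analysis was possible because high-dosed and control animals share only the number 2. With a fixed term for animal numbers from 8 up, used as a block, 9 members were higher, as were 10.1% of all genes, against 7.91% without it.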
